A study of Mus musculus with 2 samples.

Results

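Cluster 14 of the interstitial cells of the infarcted mouse heart is the cluster that the study names natural killer (NK) cells. Its members were taken as every row of the authors' deposited comparison of both genotypes in that cluster, which lists 970 genes of the 6477 distinct genes found over the 18 cluster tables. For each gene the table gives the share of the cluster's cells in each library that had a count above 0 after the authors' normalization. These shares, and their difference, are the measurements described here.

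NK cells are innate lymphocytes that kill stressed, infected or transformed cells without a rearranged antigen receptor. They weigh signals from activating and inhibitory receptors, many of them lectin-like proteins encoded side by side in the NK gene complex, and release perforin and granzymes from cytotoxic granules. The T-box factors EOMES and T-bet direct their maturation, and chemokine and sphingosine 1-phosphate receptors guide their traffic between bone marrow, blood and tissue. After myocardial infarction (MI), NK cells enter the injured ventricle along with monocytes, macrophages and T cells.

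Both libraries came from ventricles of mice that carried an R26-eGFP reporter and PostnMCM, in which the Postn locus drives a Cre recombinase that tamoxifen switches on. The control library was PostnMCM alone, and the other was Yapfl/fl;Wwtr1fl/+;PostnMCM, in which both Yap1 alleles and 1 Wwtr1 allele are floxed. Coronary ligation was followed by chow with 0.4 g/kg tamoxifen citrate, and hearts were collected after 6 days per the labels (the study's methods give a later day), dissociated by perfusion and sorted for viable cells. Cre from the Postn locus acts in fibroblasts that become myofibroblasts, and NK cells are not its intended target. There was 1 library per genotype, with nothing in the labels on how many hearts entered each, and no test between genotypes was possible: genotype and library cannot be told apart.

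Yap1, Wwtr1 and Postn were listed in 0 of the 18 cluster tables, so none has a value in NK cells. Fibroblasts were checked in 4 subclusters of cluster 5 (0, 3, 4 and 5), whose tables hold 15059 genes each. These 4 hold 238 of the 298 control fibroblasts but 86 of the 187 fibroblasts from the other library (32, 23, 10 and 21 cells), and subclusters 1 and 2 were not analysed here. Yap1 was found in 46.2%, 23.3%, 57.5% and 30.4% of control cells and in 56.2%, 43.5%, 40% and 47.6% of cells of the other library (subclusters in that order). The share was higher in 3 of these 4 subclusters, each on 10 to 32 cells of that library. Wwtr1 went from 81.4%, 93.3%, 80.0% and 100% to 90.6%, 91.3%, 60% and 85.7%. Its share was lower in subclusters 3, 4 and 5 and higher in subcluster 0. These shares cover only part of the fibroblasts, and whether the counted reads lie in the floxed stretches was not tested, so they do not show that the label is wrong. The targeted transcripts were less frequent in some of these subclusters and more frequent in others, and this library is therefore named below by its label, as the library labelled depleted, and its cells as the cells labelled depleted.

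The table gives no cell numbers, and these were read from the step of its shares. All control shares were whole numbers of cells out of 79, and all shares of the library labelled depleted were whole numbers out of 26, so that 105 cells stand behind the cluster. 1 cell is thus 1.27% of the control cells and 3.85% of the other cells. For a gene seen in no cell, 3 counts of the total allow a share of up to 3.8% in the control library and 11.5% in the library labelled depleted, a 1-sided limit, and the 2-sided intervals printed below reach further, to 4.56% and 13.2%. Neither covers cells that express a gene without a corrected count. Intervals given below are exact (Clopper-Pearson) 95% intervals on these cell numbers and cover counting error only, not differences between hearts, sorts or library preparations. The depth per cell is unknown.

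The study's name was checked against markers of NK cells. Of 32 NK identity genes, 12 were listed. Ncr1, which encodes the activating receptor NKp46, was present in 98.7% of control cells (interval 93.1 to 100%) and 88.5% of cells labelled depleted (69.8 to 97.6%). Prf1 (perforin) was present in 86.1% and 100%, and Klrb1c (the NK1.1 antigen) in 73.4% and 100%. Listed identity genes with lower shares included Eomes (64.6% and 38.5%), Tbx21 (50.6% and 50%) and S1pr5 (32.9% and 57.7%). Khdc1a (36.7% and 3.8%), Styk1 (11.4% and 38.5%) and Klri2 (0.0% and 46.2%) were also among them. The chemokine gene Ccl5, which is not on that list, was in every cell of both libraries. In T cell cluster 7 it was in 49.5% and 59.1% of cells. In the fibroblast subclusters, which should lack it, Ccl5 was counted in 17.4% to 27.5% of control cells and 4.8% to 10.0% of cells labelled depleted. Genes of innate lymphoid cells type 1 were listed in 0 of 17 cases, and of 24 T cell markers only Thy1, Lef1 and Tcf7 were listed, each in fewer than 37% of control cells. The table holds only genes found in 25% of cells or more of 1 library or both, and past a limit on the authors' average fold change. Gzma, Nkg7, the Cd3 genes and the 17 genes of innate lymphoid cells type 1 are not listed. They have no value here and may be high or low in both libraries. These counts of listed markers therefore cannot tell NK cells from innate lymphoid cells type 1 or T cells.

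Over the 970 genes, the share was lower in the library labelled depleted for 414, higher for 470 and equal for 86, and those 86 were present in every cell of both libraries. The median difference was 0.0 percentage points, with quartiles of -16.0 and 10.5. A difference of 20 points or more was taken as the size that counts. By it, 131 genes were lower (13.5% of listed genes) and 44 were higher (4.54%), and these percentages are the background for every group below. The limit fell among close values: Atg5, Phip and Rin3 were inside it at -20 points, Ifi209 and Psma5 just outside at -19.9, and Ndufa1 (20.3) and Mapre1 (19.9) stood on either side of the upper limit.

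**Figure D1:**
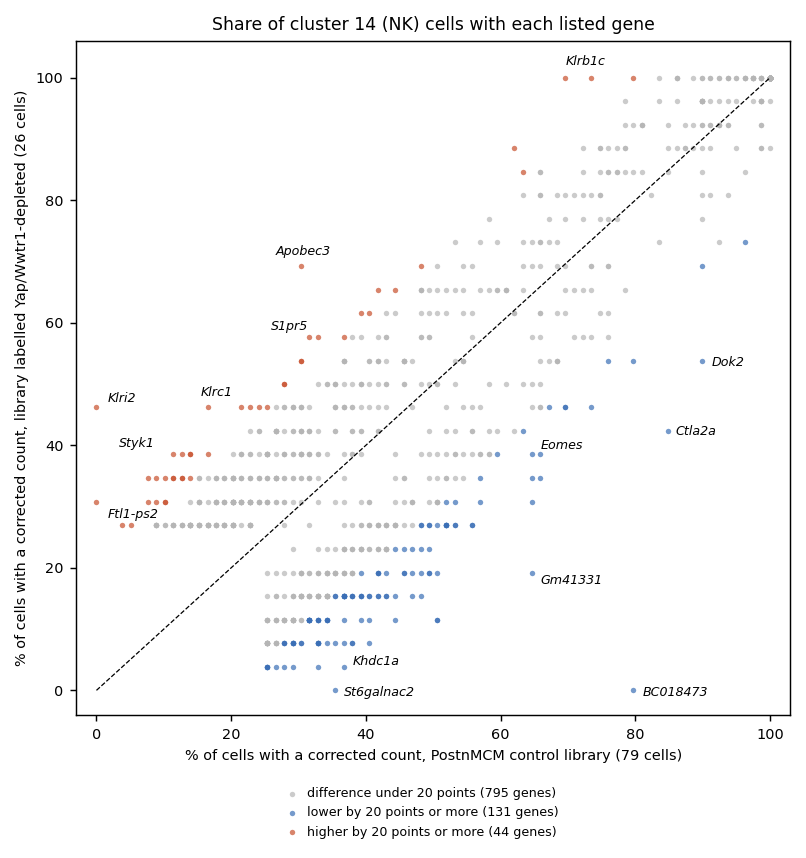
Share of cluster 14 cells with a corrected count of each of 970 listed genes, in percent, in the PostnMCM control library (79 cells, horizontal axis) and the library labelled Yap/Wwtr1-depleted (26 cells, vertical axis), 1 point per gene, with the line of equal shares dashed. BC018473 falls from 79.7% to 0.0% and Klri2 goes from 0.0% to 46.2%, and few listed genes of low share lie near the line because the table holds only genes past a fold limit.

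The NK receptor genes past the limit were all higher in the library labelled depleted. Of 38 genes for NK receptors and their adaptors, 11 were listed, 3 were higher by at least 20 points and 0 were lower by as much, with a median difference of 5.4 points (mean 9.4) beside a median of 0.0 for all listed genes. Klri2, a lectin-like receptor that pairs with KLRE1, was seen in 0 of 79 control cells (interval 0.0 to 4.56%) and in 12 of 26 cells labelled depleted (46.2%, 26.6 to 66.6%). The intervals were far apart, and Klri2 was listed in no other cluster table.

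Klrc1 encodes NKG2A, the inhibitory receptor that binds the MHC class I-like molecule Qa-1 together with CD94. It was present in 16.5% of control cells (interval 9.06 to 26.5%) and 46.2% of cells labelled depleted (26.6 to 66.6%), and the intervals only just failed to meet. Klrb1c was found in 58 of 79 control cells and in all 26 cells labelled depleted (62.3 to 82.7% and 86.8 to 100%). The remaining listed receptors had smaller differences. Klrg1, a receptor for cadherins, was at 39.2% and 50%, Klrb1a at 63.3% and 65.4%, and Slamf7, a self-ligand receptor, at 39.2% and 42.3%. Klrc3 (NKG2E) had the largest difference towards lower shares, from 53.2% to 38.5%, with wide overlap of its intervals (41.6 to 64.5% and 20.2 to 59.4%). The Ly49 receptors went in both directions, Klra3 from 16.5% to 26.9%, Klra8 from 21.5% to 26.9% and Klra7 from 44.3% to 38.5%.

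**Figure D2:**
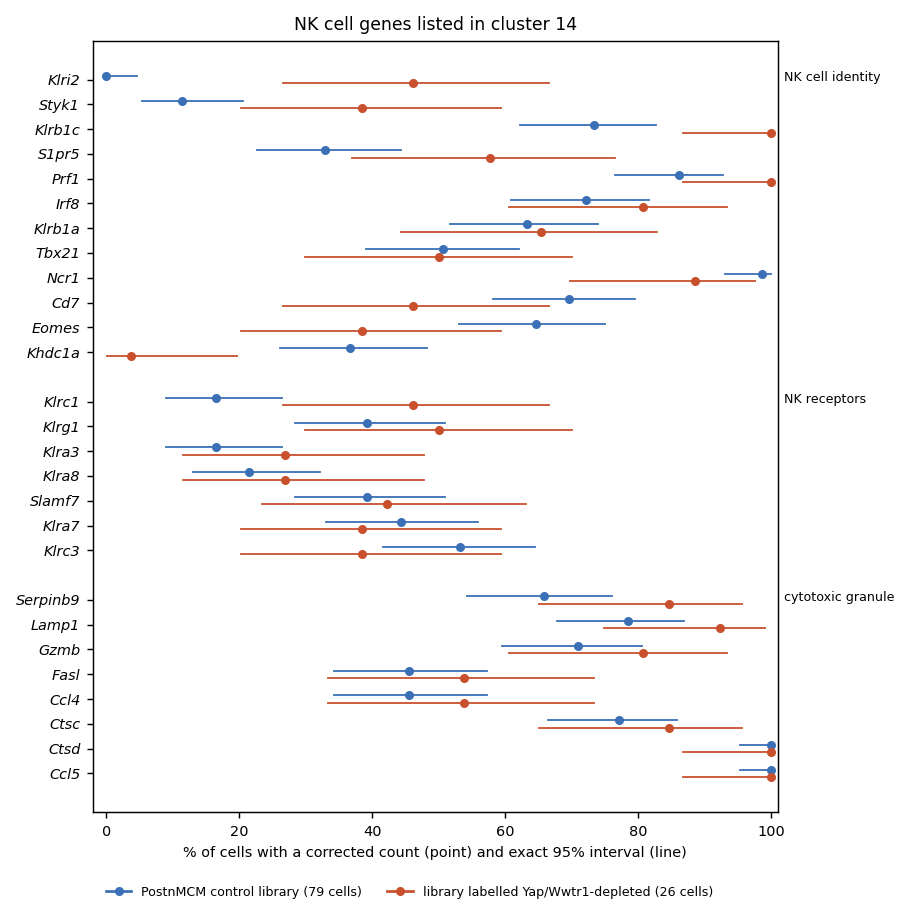
Percent of cluster 14 cells with a corrected count (points) and exact 95% interval (lines) for the listed NK identity, NK receptor and cytotoxic genes, in the control library (blue, 79 cells) and the library labelled Yap/Wwtr1-depleted (red, 26 cells). Intervals are apart for Klri2, Khdc1a, Klrb1c and Klrc1 and overlap for the other genes plotted, among them Ncr1, Tbx21 and Gzmb.

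Most of these genes lie in 1 stretch of chromosome 6. From the lower coordinate of Klrb1a to the upper coordinate of Styk1 (GRCm39, chr6:128586190-131330682, 2.74 Mb, a window chosen after the values were seen), 10 listed genes are annotated. Of these, 4 were higher by at least 20 points (Klrb1c, Klrc1, Klri2 and Styk1) and 0 were lower by as much, beside 4.54% and 13.5% of all listed genes. Styk1 sets the upper end of the window, and Klrb1c, Klrc1 and Klri2 were already counted among the receptors. The count can therefore not be read as a property of the region. The transcription starts of Klrc1 and Klri2 lie 61.5 kb apart. Styk1, a kinase-like membrane protein named among NK markers, was present in 11.4% of control cells (interval 5.34 to 20.5%) and 38.5% of cells labelled depleted (20.2 to 59.4%). In the fibroblast subclusters its share lay between 0.0% and 15% in either library. Clec2d, whose product is a ligand of an inhibitory NK receptor, was at 73.4% and 80.8%. The region held a mixture: of the 10 listed genes Klrc3 lies nearest to Klrc1, but it had the opposite sign.

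**Figure D3:**
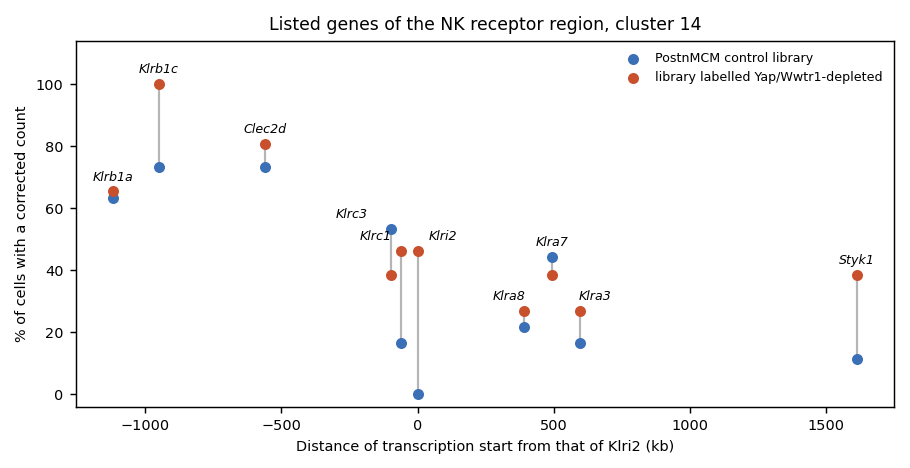
Percent of cluster 14 cells with a corrected count of the 10 listed genes between Klrb1a and Styk1, against the distance of each gene's transcription start from that of Klri2 in kb. Blue points are the control library, red points the library labelled Yap/Wwtr1-depleted, and grey lines join both; the longest lines are those of Klri2, Klrc1, Styk1 and Klrb1c.

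Members of these receptor families are similar in sequence, and reads from 3′ ends can be shared or lost between them. In the longest reading frames of the GENCODE transcripts, Klrb1a and Klrb1c were identical at 92.6% of aligned bases, Klra3 and Klra8 at 90.5%, and Klrc1 and Klrc3 at 85.6%. How the counts were split between them was not tested, so the values of single members are uncertain.

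The starts of these receptor genes were searched for short motifs in the RefSeq windows from 250 bases before to 50 bases after the transcription start (GRCm38.p6, 9 of the 11 listed receptor genes matched). Klri2 and Klrg1 had no window. The core of the RUNX motif, TGTGGT, on either strand, was present for 5 of the 9 genes and in 16.8% of all 32851 windows. The T-box core TCACACC was present for 0 of the 9 and in 3.98% of all windows, and the AP-1 site TGACTCA for 2 of the 9 and in 5.2%. Among the RUNX matches, Klrb1a and Klrb1c were 92.6% identical in their reading frames, and Klrc1 and Klrc3 85.6%. Matches within each pair can therefore not be taken as independent. Matches were also counted per gene, whereas the background is per window, and Ncr1 has multiple windows. These counts can therefore not be read as an excess or a lack beside the background. RUNX3 is a transcription factor of NK cells, and Runx3 itself was listed at 68.4% and 61.5%. The stretches below show the RUNX core in capitals, read along the gene's strand (ACCACA is the core on the opposite strand), for the 4 lectin-like receptor genes that hold it. They are shown because Klrb1c and Klrc1 were higher by at least 20 points while Klrb1a and Klrc3 did not differ by as much, although all 4 windows hold the letters.
Klrb1a, chr6:128623043-128623072, minus strand, 126 bases before the start: gggagggaaggcTGTGGTcagagtgttttg
Klrb1c, chr6:128788713-128788742, minus strand, 89 bases before the start: aggaaggaaagcTGTGGTcatggtgttttg
Klrc1, chr6:129679043-129679072, minus strand, 87 bases before the start: gttgttgttgttACCACAgcactcgtattc
Klrc3, chr6:129643347-129643376, minus strand, 76 bases before the start: ttcaatagaatcACCACAgcatagaacaca
Klrc3, second match, chr6:129643320-129643349, minus strand, 49 bases before the start: acaagtagaattACCACAgagcccagaatt
These are matches of letters, not sites shown to be bound.

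The cytotoxic genes had equal or higher shares, none past the limit. Of 32 genes of granules and effectors, 9 were listed; the share was higher for 7 and equal for 2, with a median of 8.2 points. Prf1 went from 68 of 79 cells to 26 of 26 (76.5 to 92.8% and 86.8 to 100%). Serpinb9, an inhibitor of granzyme B that protects the killer cell, had the largest difference, from 65.8% to 84.6%. Gzmb (granzyme B) was at 70.9% and 80.8%, Lamp1, a membrane protein of lytic granules, at 78.5% and 92.3%, and Ctsc, the protease that activates granzymes, at 77.2% and 84.6%. The death ligand gene Fasl and the chemokine gene Ccl4 shared 45.6% and 53.8%. Ccl5 and Ctsd were in every cell of both libraries, where a share can show no difference in level. All these intervals overlapped.

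Transcription factors and cytokine signalling genes went both ways. Of 59 genes, 14 were listed, 2 were lower and 1 higher by at least 20 points, and the median was -3.2. Eomes was present in 64.6% of control cells (interval 53.0 to 75%) and 38.5% of cells labelled depleted (20.2 to 59.4%), and was listed in no other cluster table. Tbx21, which encodes T-bet, was at 50.6% and 50%. Smad7, an inhibitor of TGF-beta signalling, went from 36.7% to 15.4%. Socs1, the feedback inhibitor of JAK kinases, went from 13.9% to 34.6%.

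Among the other listed factors, Zeb2, a factor of late NK maturation, was at 57.0% and 73.1%, Irf8 at 72.2% and 80.8%, and Prdm1 (Blimp-1) at 32.9% and 19.2%. Of the signalling genes, Tyk2, a JAK family kinase, was at 15.2% and 30.8%, Stat4, which transmits IL-12, at 63.3% and 73.1%, and Ifnar1, a chain of the type I interferon receptor, at 26.6% and 7.7%. Both chains of the IL-18 receptor stayed close, Il18r1 at 55.7% and 46.2% and Il18rap at 68.4% and 73.1%. None of these 8 genes differed by 20 points.

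Receptors for traffic held higher and lower shares. Of 34 genes, 9 were listed, 2 were lower and 1 was higher by at least 20 points. Ccr2, a receptor for CCL2, went from 89.9% to 69.2%. S1pr5, the sphingosine 1-phosphate receptor of mature NK cells, went from 32.9% (22.7 to 44.4%) to 57.7% (36.9 to 76.6%) and was listed in no other cluster table. In the fibroblast subclusters S1pr5 did not exceed 10.0% in either library. Itgax (CD11c) was just outside the limit at 50.6% and 30.8%, while the integrin genes Itga4 (88.6% and 92.3%) and Itgb1 (97.5% and 100%) differed little.

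Of the other identity genes, Khdc1a went from 29 of 79 control cells to 1 of 26 (interval 26.1 to 48.3% and 0.0973 to 19.6%). Cd7, an immunoglobulin-like membrane protein of T and NK cells, went from 69.6% to 46.2%. The identity list thus had 3 lower and 4 higher members past the limit and a median of 5.3 points.

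The largest difference of any listed gene was that of BC018473, a long non-coding RNA on chromosome 11 (GRCm39, chr11:116642993-116650199). It was counted in 63 of 79 control cells and 0 of 26 cells labelled depleted (69.2 to 88.0% and 0.0 to 13.2%). It was also listed in 15 other cluster tables, at 29.0% to 100% of control cells and 0.0% to 1.1% of cells labelled depleted, so the difference was not particular to NK cells. St6galnac2, a sialyltransferase whose annotated end lies 57.3 kb away, was at 35.4% and 0.0% here, and at 42.4% and 0.0% in cluster 7 and 38.2% and 0.0% in cluster 11. In fibroblast subclusters 3 and 5, St6galnac2 was found in 8.7% and 28.6% of the cells labelled depleted.

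Several pseudogenes shared this pattern in the other direction. Ftl1-ps2, a processed pseudogene of the ferritin light chain, was at 0.0% and 30.8%, and in the other 17 tables its control share never exceeded 5.2% while the share in the library labelled depleted was 28.3% to 100%. Gm15682 (62.0% and 88.5%) was higher in each of 16 other tables and Rpl34-ps1 (8.9% and 34.6%) in each of 15. Apobec3, a cytidine deaminase that restricts retroviruses, went from 30.4% (20.5 to 41.8%) to 69.2% (48.2 to 85.7%) and was higher in each of 13 other tables. Gm12191 went from 40.5% to 7.7% and was lower in each of 13 others. In the fibroblast subclusters this held less widely: Apobec3 was lower in subclusters 0 (46.9% and 37.5%) and 4 (52.5% and 40%), Gm15682 was lower in subcluster 4 (97.5% and 80%) and Gm12191 was higher in subcluster 5 (69.6% and 81.0%). All tables come from the same 2 libraries, so these are not independent repeats. In all, 66 of the 970 genes were listed in 9 or more tables, and 9 of those differed by 20 points in NK cells, 4 lower and 5 higher.

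**Figure D4:**
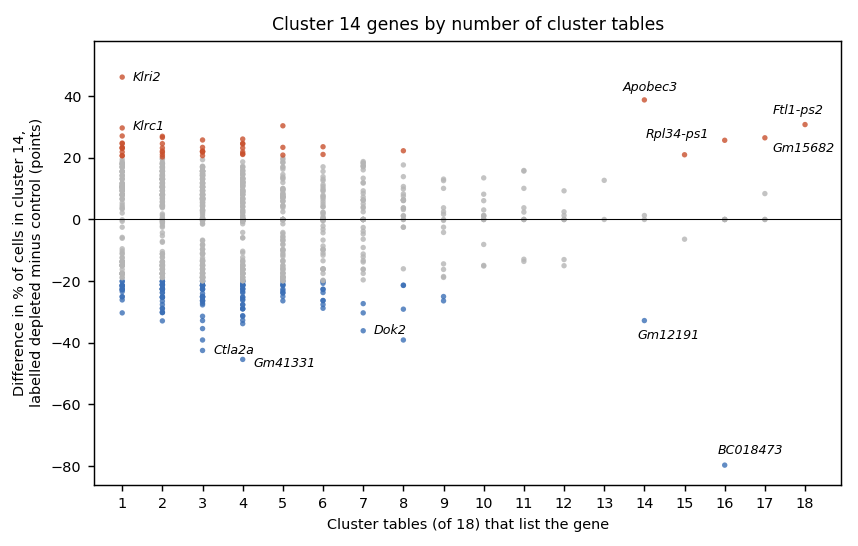
Difference in share of cells in cluster 14 (library labelled depleted minus control, percentage points) against how many of the 18 cluster tables list the gene, 1 point per listed gene, with differences of 20 points or more in blue (lower) and red (higher). BC018473, Ftl1-ps2, Gm15682, Rpl34-ps1, Gm12191 and Apobec3 are listed in 14 or more tables, whereas Klri2 and Klrc1 are listed in cluster 14 alone.

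The other large falls were in genes listed in 2 to 14 tables. Ctla2a, which encodes an inhibitor of cysteine proteases and was first found in activated T cells, went from 84.8% to 42.3% (75 to 91.9% and 23.4 to 63.1%). It went from 36.8% to 6.2% in macrophage cluster 11 and from 25% to 0.0% in dendritic cell cluster 17, and in the fibroblast subclusters it was also less frequent in the library labelled depleted. Gm41331, a long non-coding RNA, went from 64.6% to 19.2%, and in the T cell clusters 4, 7 and 8 it was at 64.5% and 32.2%, 37.4% and 32.7%, and 67.8% and 47.9%. Dok2, an adaptor that dampens receptor signalling, went from 89.9% to 53.8%. It was lower in 5 of the 6 other cluster tables that list it and higher in 1.

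Borcs8, a subunit of a complex that positions lysosomes, and the long non-coding RNA 5033421B08Rik both went from 50.6% to 11.5%. The remaining genes of the 15 largest falls were Sap18 (64.6% to 30.8%), Anapc11 of the anaphase-promoting complex (44.3% to 11.5%), Mrps16 of the mitochondrial ribosome (48.1% to 15.4%), Ssrp1 of the histone chaperone FACT (46.8% to 15.4%), Polr2f of RNA polymerases (50.6% to 19.2%) and the T cell adaptor gene Sh2d2a (65.8% to 34.6%). In the other cluster tables that list them, Sap18, Mrps16 and Polr2f were lower each time. Anapc11, Ssrp1 and Sh2d2a went both ways.

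Among the 15 largest rises not yet named, Chmp2a, a subunit of the membrane-scission complex ESCRT-III, went from 69.6% to 100%. The ubiquitin protease gene Usp48 went from 31.6% to 57.7%, Acap2, which acts on the small GTPase ARF6, from 7.6% to 34.6%, Dapp1, an adaptor that binds phosphoinositides, from 12.7% to 38.5%, and Fam174a from 21.5% to 46.2%. With 26 cells, each of these shares in the library labelled depleted rests on 9 to 26 cells.

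Of the 970 genes, 121 (12.5%) were listed in cluster 14 alone. Of these, 15 were lower and 11 higher by at least 20 points. Klri2, Klrc1, Styk1, S1pr5 and Eomes, described above, are among them, as are 3 of the cytotoxic genes (Gzmb, Serpinb9 and Fasl). Gimap9 and Gimap6, which encode GTPases of lymphocytes, went from 69.6% to 46.2% and from 75.9% to 53.8%. The largest fall among them was that of Ddt, a relative of the cytokine MIF, from 38.0% to 7.7%.

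Further genes listed here alone with lower shares were Cntrl, a protein of the centriole (40.5% to 15.4%), Cab39, a partner of the kinase LKB1 (51.9% to 26.9%), the phosphatase gene Ppp6c (26.6% to 3.8%), the proton exchanger gene Slc9a7 and the zinc finger gene Zfp638 (both 34.2% to 11.5%), and LOC118567719 (25.3% to 3.8%). With higher shares there were Ccdc32 (13.9% to 38.5%), Camk2n1, an inhibitor of CaM kinase II (22.8% to 46.2%), the helicase gene Ddx55 (7.6% to 30.8%), the ubiquitin ligase gene Mgrn1 (3.8% to 26.9%), 3300002I08Rik (12.7% to 34.6%) and Plpbp (10.1% to 30.8%). A gene is missing from another table also where that cluster expresses it equally in both libraries, so being listed here alone does not mean that NK cells alone express it. How many genes a table lists also followed its cell number: over the 18 tables Spearman's rho between the cells of the smaller library and the genes listed was -0.81, and cluster 14 had the 6th longest list.

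The T cell clusters are the nearest lymphocytes for comparison, and 4 of them (4, 7, 8 and 10) were set beside the NK cells. Of the 970 genes, 504 were listed in at least 1 of these tables and 466 in none. Klrb1c was listed in cluster 7 at 5.1% and 32.1%, a difference of 27.0 points beside 26.6 in NK cells. Prf1 was listed in cluster 8 at 10.5% and 25%. Runx3 was at 49.5% and 67.9% in cluster 7 and at 71.9% and 72.9% in cluster 8, with 68.4% and 61.5% in NK cells.

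Gene groups shared by many cell types were counted in the same way. Of the 58 listed genes for cytosolic ribosomal proteins, 57 were in every cell of both libraries and Rps6 was at 89.9% and 76.9%. Their listing therefore rests on the authors' average level, not on shares. Of 14 listed genes of the actin cytoskeleton, which builds the contact with a target cell, 0 passed the limit in either direction, with Actb and Cfl1 in every cell, the largest difference at Dock8 (46.8% and 30.8%) and the largest towards higher shares at Rdx (49.4% and 61.5%). Of 19 listed respiratory chain genes, 10 had a higher, 8 a lower and 1 an equal share. By at least 20 points, 1 was higher (Ndufa1, a subunit of complex I, 79.7% to 100%) and 0 were lower, with Ndufa12 at 57.0% and 38.5%.

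Of 9 proteasome genes, 7 had a lower share, with a median of -12.3 points and a mean of -6.3, and 0 reached 20 points. Psmb2 and Psmb6 are among the 7 at only -0.5 points, less than 1 cell. Psma5 and Psmd13 were closest, both at 43.0% and 23.1%, while Psmd6 (26.6% and 42.3%) had the opposite sign. Of 77 interferon-stimulated genes, 10 were listed, 5 with a higher and 5 with a lower share, and Apobec3 alone passed the limit. Tap1, the peptide transporter of MHC class I loading, was at 24.1% and 42.3%, Ddx58, the RNA sensor RIG-I, at 25.3% and 7.7%, Ifi209 at 46.8% and 26.9%, Trim30a at 46.8% and 30.8% and Sp100 at 75.9% and 61.5%. Of 27 MHC class I genes, 5 were listed and 0 passed the limit, with B2m and H2-K1 in every cell.

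Of 58 cell cycle genes, 9 were listed and 1 was lower by at least 20 points. Cdkn1b, which encodes the cyclin-dependent kinase inhibitor p27, went from 38.0% to 15.4%. Cks2 was at 25.3% and 7.7%, Nasp at 26.6% and 42.3%, Mcm6 at 30.4% and 15.4%, and the D-type cyclin genes Ccnd2 (78.5% and 84.6%) and Ccnd3 (64.6% and 73.1%) differed little. Of 44 immediate early and feedback genes, which dissociation of tissue can induce, 5 were listed and 0 passed the limit, with Klf6 at 65.8% and 46.2%, Tsc22d3 at 26.6% and 42.3% and Ier2 at 50.6% and 38.5%. Of 34 genes for heat shock proteins and chaperones, 7 were listed and 0 passed it, the largest difference being that of Hspa9 (17.7% and 34.6%).

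Of 17 S100 and annexin genes, 6 were listed, and Anxa1, a mediator of the resolution of inflammation, was the only member past the limit, going from 65.8% to 38.5%. S100a4 was at 86.1% and 96.2%. Of 29 glycolysis genes, 4 were listed and 0 passed it, with Pgam1 at 65.8% and 53.8% and Ldha at 89.9% and 92.3%. Of 13 ferritin and iron genes, 3 were listed, Fth1 and Ftl1 in nearly every cell and Ftl1-ps2 as above.

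**Figure D5:**
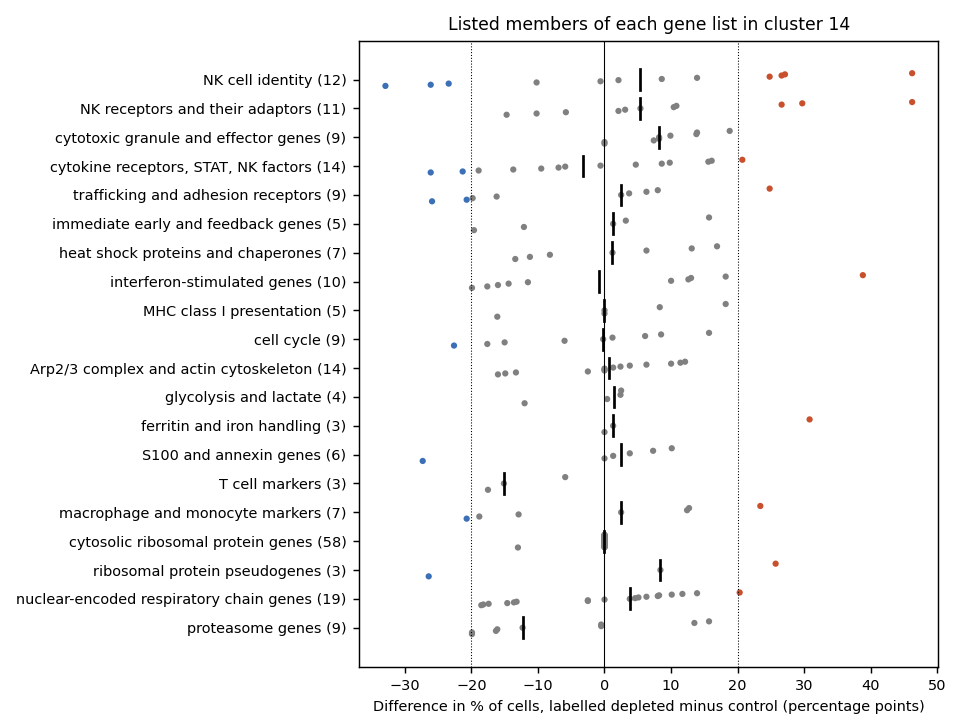
Difference in share of cells (library labelled depleted minus control, percentage points) for the listed members of each gene list with at least 3 of them, with the number listed in parentheses, 1 point per gene and a black bar at the median; dotted lines mark 20 points. Cytotoxic genes lie at 0 or above, and proteasome genes lie between -19.9 and 15.7.

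Transcripts of other cell types were also counted in cluster 14. Of 36 macrophage and monocyte markers, 7 were listed. Lyz2 was in 83.5% of control cells and 96.2% of cells labelled depleted, Apoe in 97.5% and 100%, and C1qb in 68.4% and 80.8%. In cluster 13, which the study names macrophages, C1qb was at 52.6% and 26.8%, and in the fibroblast subclusters it was at 77.5% to 82.8% and 10.0% to 47.6%. C1qb was thus more frequent in NK cells labelled depleted but less frequent in the other clusters that list it. Ly6c2 went from 30.4% to 53.8%, and in T cell cluster 7 from 32.3% to 65.4%. Ccr2, counted above as a traffic receptor too, went from 89.9% to 69.2%, Spp1 from 34.2% to 15.4% and Lgals3 from 93.7% to 80.8%. Of the 7 listed markers, 4 had a higher and 3 a lower share, with 1 in each direction past the limit. Their percent shares summed to 497.6 in the control library and 496.2 in the library labelled depleted, because higher and lower members cancelled. The part of free RNA or doublets in any of the differences above was not tested.

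The fibroblast gene Col3a1, the single listed member of 18 fibroblast markers, was at 26.6% and 11.5%. In the other 9 tables that list it, it was lower in 8 and higher in 0. Mxd1 was the single listed member of 18 neutrophil markers, at 27.8% and 7.7%. The listed T cell markers were lower in the library labelled depleted, Thy1 at 32.9% and 15.4%, Lef1 at 26.6% and 11.5% and Tcf7 at 36.7% and 30.8%, with none past the limit. Of the markers of B cells, dendritic cells, endothelial cells, cardiomyocytes and erythroid cells, 0 were listed, so they have no value here. H2-Ab1 of MHC class II was at 74.7% and 80.8%.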

How the data were processed

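The 2 libraries of sorted interstitial heart cells (1 per genotype) were analysed. Per the labels and methods, the authors used 10x Chromium 3.1 chemistry, Cell Ranger 6.1.1 with GRCm39 and Seurat, combined both libraries, removed low-quality cells (no doublet caller is named), normalized with SCTransform, clustered, and compared genotypes within clusters. The deposited fraction is the share of a cluster's cells with a corrected count above 0; it is printed as a percent. SCTransform adjusts counts for depth, so a fraction is not the share of cells with a raw count. The deposited tables also hold the authors' average log2 fold changes and p-values, which were not used. Cluster tables list genes at 25% of cells or more in either library (checked; lowest 25.3%) and, per the authors' code, at an average log2 fold change of 0.25 or more in size.

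Cell numbers are the smallest whole numbers that give every share at 3 decimals (Python 3.11.15, numpy 2.4.6; intervals from scipy 1.17.1). Tested on simulated shares of 26 and 79 cells for 970 genes, 100 of 100 draws were recovered in each case. Cells of 1 library are not replicates, so no test was made. Named genes were the 15 largest differences in each direction, the 10 largest in each direction among genes listed here alone, and listed members of gene lists. Members, lists and the limit of 20 points were chosen with earlier results of these data known. Positions are from GENCODE on GRCm39 (943 of 970 symbols matched), and 782 symbols had a RefSeq promoter window. The values of 1 listed gene are not reported here.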

Additional observations from a re-analysis of the deposited data

Results flagged for a closer look

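For 7 named genes the difference in share passed 20 points one way in NK cells and the other way in another cluster. With 1 library per genotype, the difference between clusters was not tested, and clusters 17 and 18 hold only 31 and 28 cells.

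Cd7 was 34.7 points higher in macrophage cluster 11 and lower in NK cells (-23.4). In cluster 9, where 17 control cells were inferred, Socs1 was lower (-22.9), and in NK cells it was 20.7 points higher.

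In dendritic cell cluster 17, Anapc11 and Ssrp1 were 28.6 and 29.5 points higher, and in NK cells they were lower (-32.8 and -31.4). Dapp1 and Fam174a were lower there (-42.7 and -26.8) and higher in NK cells by 25.8 and 24.7 points. Acap2 was lower in neutrophil cluster 18 (-25.1) and 27.0 points higher in NK cells.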

How the results depend on the processing

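With 26 cells in the library labelled depleted, 1 cell moves a share by 3.85 points, and shares near 100% in both libraries cannot show a difference. The 131 lower and 44 higher genes became 340 and 257 at a limit of 10 points, 20 and 4 at 30 points, and 36 and 18 when only genes that reached 50% of cells in 1 library were counted. They moved less under a log2 ratio of shares of 1 or more (135 and 49), without genes in 9 or more tables (127 and 39) and without pseudogenes and predicted models (126 and 40). The percent of listed genes with a lower share, 42.7, was 47.2 without genes in 95% of cells of both libraries, 33.1 among genes that reached 50% in 1 library, and 48.8 among differences of 5 points or more. The median difference moved by less than 1 cell. The 121 genes listed in cluster 14 alone became 466 when only the 4 T cell tables were compared, 243 when a table counted only at 10 points or more, and 24 at 50% of cells. The next larger numbers that give every share are 158 control cells and 52 cells labelled depleted. They would need every gene to be in an even number of cells and would narrow the intervals. Taking the mean in place of the median moved 6 of 23 lists by more than 1 cell, and leaving out genes in 9 or more tables moved 5 of 19. The sign changed for 7 lists with the mean and for 2 lists without those genes. With the mean, NK receptors went from 5.4 to 9.4 points, proteasome genes from -12.3 to -6.3, ferritin and iron handling from 1.3 to 10.7 and ribosomal protein pseudogenes from 8.4 to 2.6, without a change of sign. The sign changed where trafficking went from 2.5 to -4.1 points, respiratory chain from 3.8 to -0.4, macrophage markers from 2.5 to -0.2, glycolysis from 1.4 to -1.7 and interferon-stimulated genes from -0.8 to 1.3. Immediate early genes (1.3) became -2.3 with the mean and -12.1 without common genes, and S100 and annexin genes (2.5) became -0.8 and -10. Without common genes, interferon-stimulated genes went from -0.8 to -11.5, MHC class I from 0.0 to 8.3 and macrophage markers from 2.5 to 12.4. No paired analysis was possible because there is only 1 library of each genotype.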
